A study of Mus musculus with 24 samples.

Results

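The mitochondrially encoded genes are the genes of the mouse mitochondrial chromosome, chrM, and were taken as every gene whose GENCODE M21 symbol starts with mt-. There were 37 of them among the 55487 genes counted in each library: 13 mRNAs, 2 rRNAs and 22 tRNAs. The mitochondrial genome is a small circle that is transcribed from both strands into long polycistronic RNAs. These are cut mainly at the tRNAs that punctuate them, releasing the rRNAs and mRNAs. The mRNAs all encode subunits of the respiratory chain and of ATP synthase, while the polymerase, the ribosomal proteins, the RNA-processing factors and the other subunits of the same complexes come from nuclear genes. The promoter called the heavy-strand promoter gives both rRNAs, 14 of the tRNAs and 12 of the mRNAs; the light-strand promoter gives mt-Nd6 and the other 8 tRNAs.

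The 24 libraries were made from total RNA of KH2 cells, a mouse embryonic stem cell line built for doxycycline-controlled transgenes. All of them, controls included, carried TRE_DUX, a transgene that makes the transcription factor DUX when doxycycline (DOX) is added. DUX switches on genes normally expressed in the 2-cell embryo, and the study asked what lets cells leave that state. In every line 2 libraries came from cells without DOX and 2 from cells given DOX for 16 hours. The lines were WT and DUXBL-KO, here called the plain set, and the 4 lines whose titles carry pLV2, a term the labels do not explain. These were a pair of WT lines, numbered 1 and 2, and the lines TRIM33-KO and TRIM24-KO, together the pLV2 set. KO marks a line labelled as a knockout of that gene, with 1 line each, and the labels do not say whether a line is 1 clone. Cells were grown on gelatin or on growth-arrested embryonic fibroblasts, and which libraries had which is not stated. The treatment tag disagreed with the title in 8 libraries, and the titles were followed: Duxf3, the mouse Dux gene, had 0 to 2 counts in the libraries titled without DOX and 20 to 110 in those titled with it. Nothing in the labels says that the 2 replicates of a group were separate cultures, so the p-values below measure the spread between these libraries.

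Each library held 11784696 to 19136869 counts over genes, and levels are given as CPM, counts per 1000000 gene counts, with trimmed-mean scaling. All 14 pluripotency markers were detected, with a summed level of 5009 to 7500 CPM per library. Of 13 fibroblast markers, Dcn, Lum, Postn, Prrx1 and Col3a1 did not exceed 0.254 CPM in any library, and Col6a1 did not exceed 0.549 CPM. Col5a1 was at 9.84 to 27.1 CPM, Thy1 at 4.79 to 20.8, Col1a1 at 0.781 to 7.48, Loxl1 at 0.508 to 4.03, Twist1 at 0.533 to 3.6 and Col1a2 at 0 to 3.2 CPM. Fn1, at 604 CPM or more, made up nearly all of the list's sum of 634.9 to 1836 CPM. The 9 markers of the 2-cell-like state summed to at most 5.49 CPM without DOX and to between 809.1 and 7998 CPM with it. Trim33 was at 20.3 to 21.4 CPM in TRIM33-KO against 115 to 140 CPM in the WT pLV2 lines without DOX (log2 -2.61 ± 0.07, edgeR adjusted p = 3.22e-13). Trim24 was at 123 to 137 CPM in the libraries labelled TRIM24-KO against 94.5 to 196 CPM, and Duxbl1 at 0.321 to 0.862 CPM in those labelled DUXBL-KO against 0.364 to 1.86 CPM, and neither passed (edgeR adjusted p = 0.825 and 0.841). Gene counts thus do not set these 2 labels apart from WT. A few rows can take many counts: CT010467.1 held 30.43% of gene counts in TRIM24-KO with DOX replicate 2 and 12.85% in TRIM33-KO with DOX replicate 2, and at most 1.3% in any other library. In bulk RNA, fewer cells of a type and less RNA per cell cannot be told apart.

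Before any comparison, reads of 5 of the 13 mRNAs were found divided between the mitochondrial gene and a nuclear copy. A stretch of chromosome 1 (minus strand, between 24611535 and 24616197 on mm10) holds unprocessed pseudogenes of mitochondrial origin that are annotated as genes of their own. The sequences show how little separates them: mt-Nd3 (chrM:9459-9491, plus strand, bases 1 to 33) and Gm28438 (chr1:24613087-24613119, minus strand) differ by T3C, counted from 1 at the start of mt-Nd3 and printed in capitals, and by no other base over 345.
mt-Nd3: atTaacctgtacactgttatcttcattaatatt
Gm28438: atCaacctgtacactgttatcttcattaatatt
In mt-Nd4l (chrM:9877-10173, plus strand, 297 bases) the capitals mark the 294 bases that Gm10222 (chr1:24612407-24612700, minus strand) repeats without a difference.
mt-Nd4l: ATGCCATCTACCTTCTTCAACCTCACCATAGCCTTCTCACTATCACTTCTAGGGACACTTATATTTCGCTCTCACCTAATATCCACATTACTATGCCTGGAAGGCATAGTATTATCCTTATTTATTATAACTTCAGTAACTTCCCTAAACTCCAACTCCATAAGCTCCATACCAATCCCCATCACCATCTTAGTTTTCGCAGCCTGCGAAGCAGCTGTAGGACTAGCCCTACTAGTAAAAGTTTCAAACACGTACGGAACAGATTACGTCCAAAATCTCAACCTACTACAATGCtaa
The mt-Co2 gene shares 681 bases with Gm28661 (chr1:24614885-24615565), mt-Co3 783 with Gm28437 (chr1:24613189-24613971) and mt-Atp6 678 with Gm10925 (chr1:24613974-24614651), with no mismatch in any of the 3. A read of 75 bases within such a stretch fits both places equally well.

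Neighbouring mitochondrial genes also overlap each other. The last 60 bases of mt-Atp8 (chrM:7910-7969, plus strand) are shown because the 43 in capitals are also the first 43 of mt-Atp6, which starts at 7927.
mt-Atp8: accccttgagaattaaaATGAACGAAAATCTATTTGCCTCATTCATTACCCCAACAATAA
In the same way 7 bases belong to both mt-Nd4l and mt-Nd4, and 14 to both mt-Nd5 and mt-Nd6 on opposite strands. The tRNA with the most counts and 1 of the 6 with none are given for comparison, mt-Tl1 (leucine tRNA, chrM:2676-2750, plus strand, 75 bases) and mt-Tq (glutamine tRNA, chrM:3772-3842, minus strand, 71 bases). Both genes are about as long as a sequencing read, and no base is marked in capitals.
mt-Tl1: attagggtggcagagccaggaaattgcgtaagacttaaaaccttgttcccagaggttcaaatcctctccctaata
mt-Tq: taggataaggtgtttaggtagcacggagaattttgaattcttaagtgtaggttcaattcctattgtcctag

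The deposited counts were divided unevenly between gene and copy. The mt-Co2 row ranged from 0 to 42075 counts and was at 0 in 2 libraries, while Gm28661 ranged from 0 to 26637 and was at 0 in 3. In TRIM33-KO, Gm28661 held 0% and 0% of the pair's counts in the libraries without DOX and 57.14% and 100% in those with it. The libraries of WT pLV2 line 2 had 50% and 66.67% without DOX and 33.34% and 100% with it at this copy. Replicates of 1 group thus lay as far apart as treatments. In all 16 pLV2 libraries this percentage lay within 0.01 percentage points of a fraction with a denominator of at most 12, against 1 of the 8 plain libraries. For mt-Nd3 the copy took nearly everything: the mitochondrial row was at 0 in 18 libraries and reached 69 counts, while Gm28438 had 806 to 3017. The mt-Nd4l row was at 0 in 11 libraries and Gm10222 had 731 to 2634 counts. Gm28437 held 50% to 95% of the pair with mt-Co3, and Gm10925 0% to 58.3% of the pair with mt-Atp6. By contrast, Gm28439, identical to mt-Nd4 over 876 bases, had 0 to 12 counts against 10819 to 32157 for mt-Nd4, and the copies of mt-Co1 had at most 45.

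Adding the rows of each pair brought replicates together. The median difference between replicates of a group, as an absolute log2 ratio, went from 0.83 to 0.14 for mt-Co2, from 0.41 to 0.15 for mt-Co3 and from 0.31 to 0.22 for mt-Atp6; for summed mt-Nd3 it was 0.13 and for summed mt-Nd4l 0.12. The summed rows were chosen after these values were seen. Below, calls on the rows as deposited are given first, and for the mRNAs with a copy the values with the copies added. How reads with more than 1 place of origin were counted is not given in the sources used here.

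**Figure D1:**
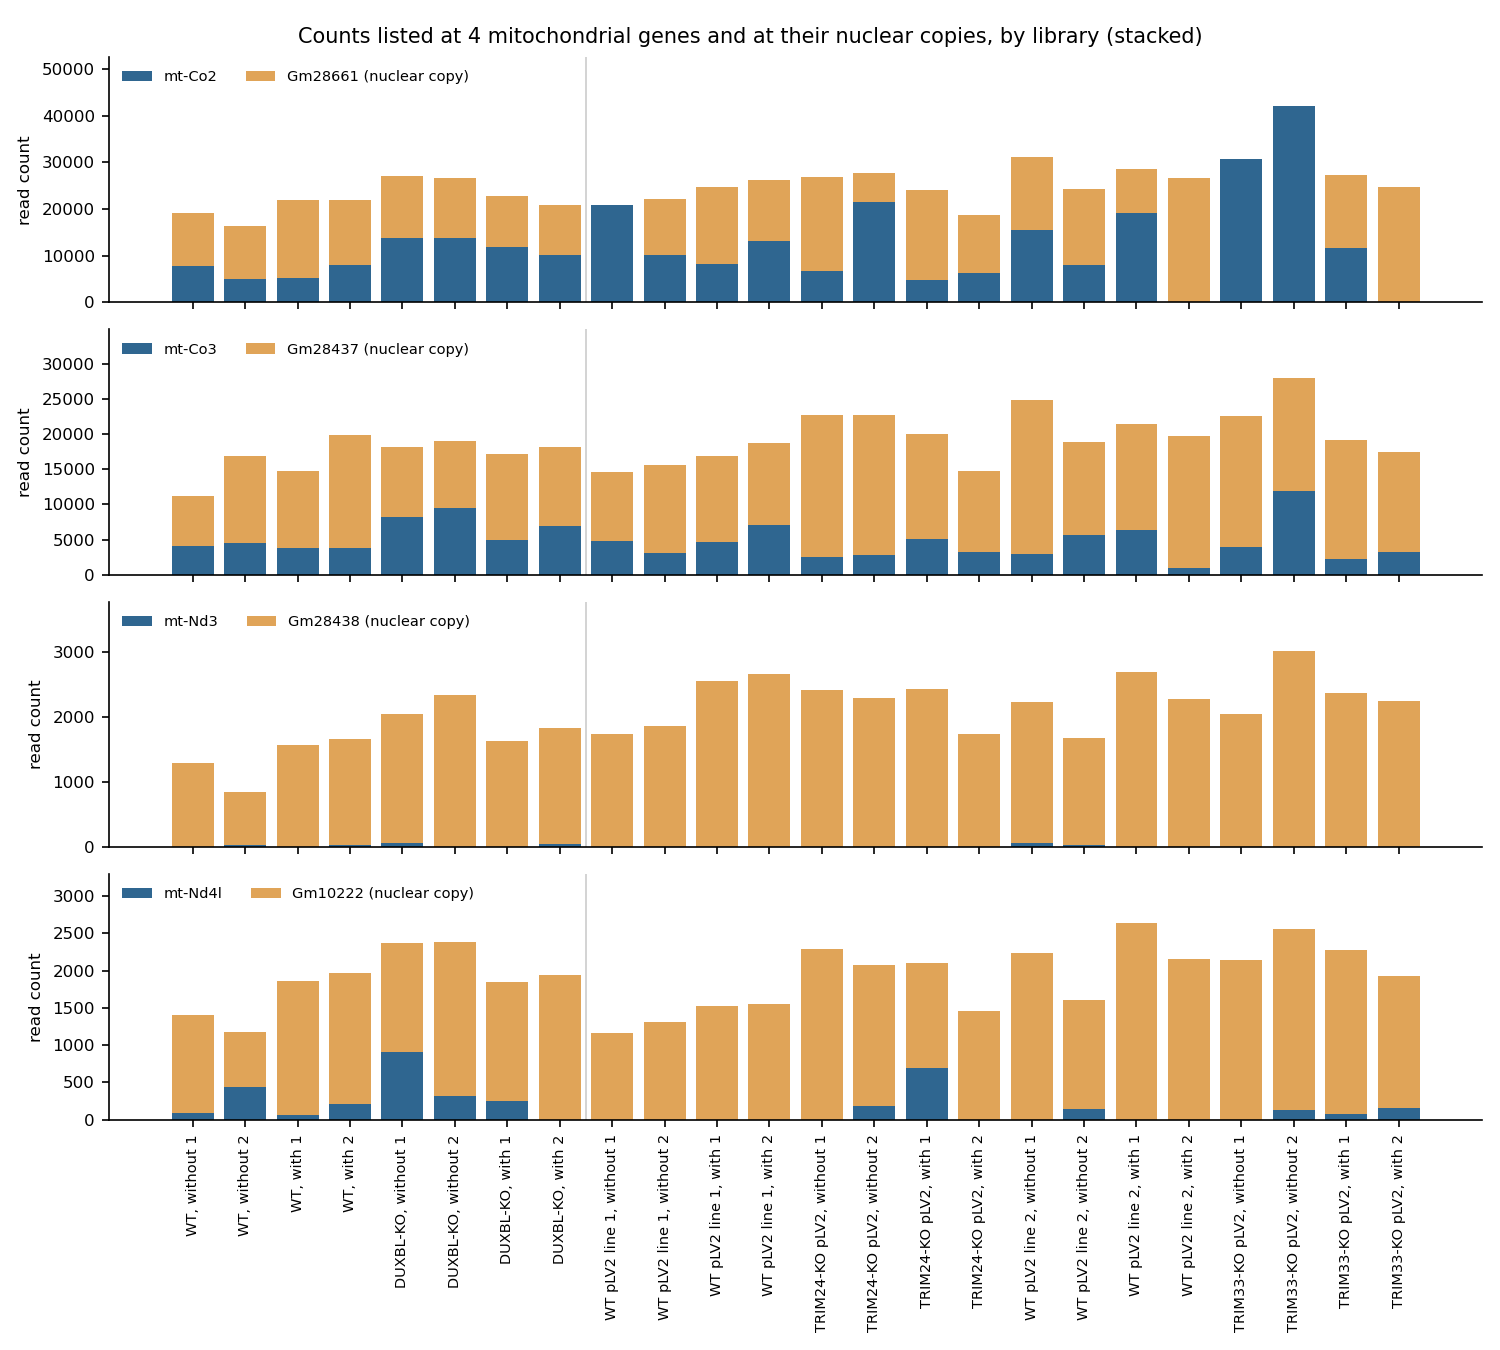
Read counts (y axis, from 0) listed at mt-Co2, mt-Co3, mt-Nd3 and mt-Nd4l (blue) and at their nuclear copies (orange), stacked, with 1 bar per library; the grey line separates the plain set (left) from the pLV2 set. The blue part of mt-Co2 runs from 0 to 42075 counts, and in 18 libraries none of the mt-Nd3 pair is blue.

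Mitochondrial genes took 5.02% to 15.92% of all gene counts, most of it rRNA: the 2 rRNAs made up 75.04% to 88.08% of mitochondrial counts, although the libraries had been depleted of rRNA. In the plain set the share did not move in 1 direction with DOX. It was 7.97% and 5.02% without and 7.83% and 6.33% with DOX in WT, and 7.32% and 7.08% without and 7.40% and 6.11% with DOX in DUXBL-KO. In both lines the values with DOX overlapped those without. WT pLV2 line 1 had 12.03% and 11.51% without and 13.25% and 14.24% with DOX. WT pLV2 line 2 had 9.45% and 10.79% without and 13.15% and 12.90% with DOX. TRIM33-KO had 10.81% and 13.63% without and 14.76% and 15.60% with DOX. In these 3 lines both libraries with DOX lay above both without. TRIM24-KO had 14.46% and 14.76% without and 15.92% and 14.72% with DOX, and its groups overlapped. The overlap came from replicate 2 with DOX, the library in which CT010467.1 held 30.43% of counts; with that row out of the totals the log2 ratio in TRIM24-KO was 0.32 in place of 0.07.

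Group means of the share were 11.8% ± 0.36 and 13.7% ± 0.71 (SD, n = 2 each) in WT pLV2 line 1, 10.1% ± 0.95 against 13% ± 0.18 in line 2, 14.6% ± 0.21 against 15.3% ± 0.84 in TRIM24-KO, and 12.2% ± 2.0 against 15.2% ± 0.59 in TRIM33-KO. In the plain set they were 6.5% ± 2.1 and 7.08% ± 1.1 in WT and 7.2% ± 0.17 and 6.76% ± 0.91 in DUXBL-KO. Over the 4 pLV2 lines the share was 1.19-fold higher with DOX (exact permutation of DOX labels within lines, two-sided p = 0.00309, adjusted over 15 such tests p = 0.0231). Over the 2 plain lines the ratio was 1.02 (exact permutation p = 0.833; the smallest p this design allows is 0.0556). Over all 6 lines it was 1.13 (exact permutation p = 0.0314, adjusted p = 0.0862), which did not pass. With the repeat subfamilies of the tables counted into the totals, the pLV2 difference was 0.12 on the log2 scale in place of 0.24 (exact permutation p = 0.0494, not adjusted). By line it was then 0.16 in place of 0.22 in WT pLV2 line 1, 0.19 in place of 0.37 in line 2, 0.02 in place of 0.07 in TRIM24-KO and 0.10 in place of 0.32 in TRIM33-KO. Over all 6 lines it was 0.07 in place of 0.17 (exact permutation p = 0.347). Counting error was small beside these differences: the 95% Wilson interval of the lowest share was 5.01% to 5.03%, and it covers counting error only, since the reads carried no molecular identifiers.

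The rRNAs carried this difference most evenly. Their share of gene counts was 8.85% and 11.1% without and 12.28% and 13.25% with DOX in TRIM33-KO, and 12.38% and 12.61% against 13.59% and 12.97% in TRIM24-KO. WT pLV2 line 1 had 10.28% and 9.84% against 11.19% and 12.19%, and line 2 had 7.55% and 8.91% against 10.64% and 10.69%. The groups did not overlap in any of the 4, and the mean ratio was 1.2 (exact permutation p = 0.00154, the smallest this design allows; adjusted p = 0.0231). In WT they were 6.48% and 3.8% without against 6.51% and 4.86% with DOX, and in DUXBL-KO 5.56% and 5.31% against 5.69% and 4.75%, overlapping in both. The mRNAs with their copies took 1.42% to 2.88%. Line 1 had 1.87% and 1.88% without and 2.32% and 2.35% with DOX, line 2 had 2.16% and 2.11% against 2.88% and 2.61%, and TRIM33-KO had 2.08% and 2.64% against 2.85% and 2.76%, without overlap in these 3. DUXBL-KO had 1.95% and 1.96% without and 1.94% and 1.56% with DOX, so that both treated libraries were lower, replicate 1 only slightly. Their pLV2 ratio of 1.17 had an exact permutation p of 0.0154 and an adjusted p of 0.0772, so it did not pass, and in TRIM24-KO replicate 2 with DOX their share, 1.97%, was below both libraries without DOX. The tRNAs took 0.005% to 0.0155%, with a pLV2 difference of 0.24 on the log2 scale (exact permutation p = 0.0448, adjusted p = 0.0959). By line it was 0.29 in line 1, 0.49 in line 2 and 0.37 in TRIM33-KO, but -0.19 in TRIM24-KO.

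**Figure D2:**
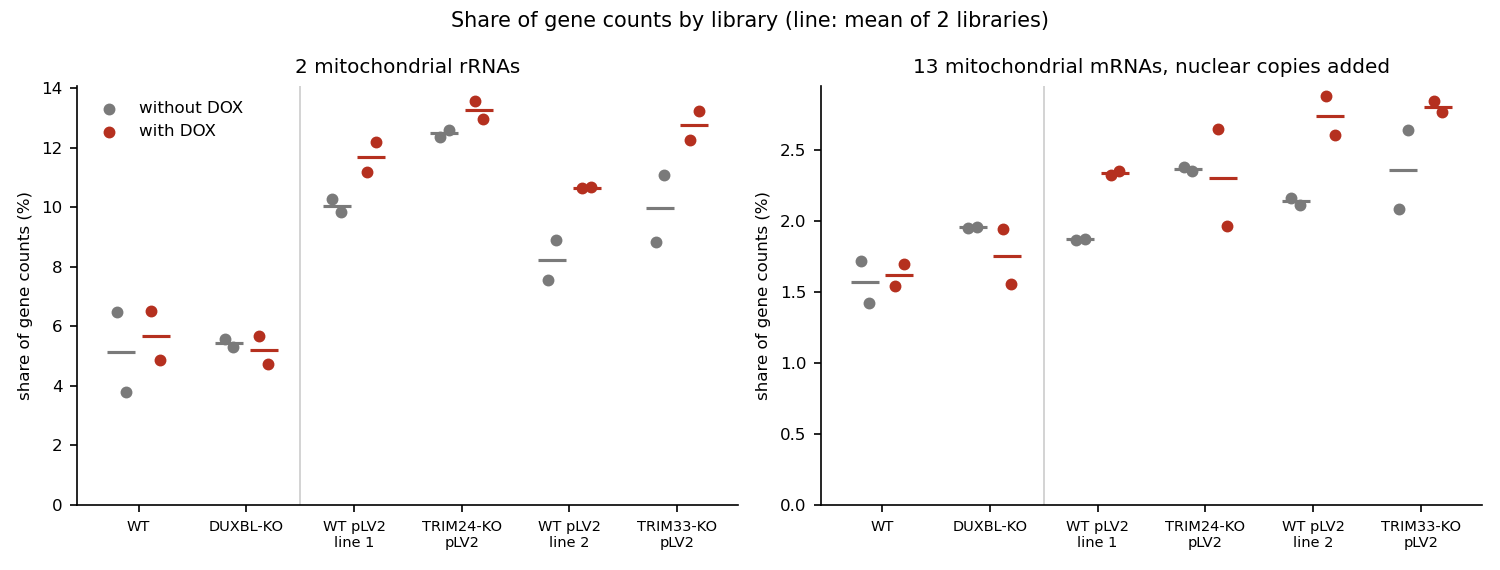
Percent of gene counts (y axes start at 0) taken by the 2 rRNAs (left) and by the 13 mRNAs with nuclear copies added (right) in each library without (grey) and with DOX (red), by line; short bars are means of 2 libraries. In all 4 pLV2 lines both rRNA points with DOX lie above both without, and among the mRNA shares this holds in all but TRIM24-KO.

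Gene by gene, 6 to 20 mitochondrial rows rose with DOX in each pLV2 line, and none passed the test in the plain set without a replicate block. In these tests (edgeR's quasi-likelihood test, Benjamini-Hochberg adjustment over all genes, threshold 0.05) 29 of the 37 genes could be tested in the plain set, and 28 in the other; the rest, all tRNAs, were too low. In WT pLV2 line 1, 6 rose and 0 fell, where 10% of all tested genes rose and 6.25% fell. For line 2 of the WT cells, 16 rose and 1 fell, where 12.7% rose and 14% fell. In TRIM24-KO 8 rose and 0 fell, where 11.5% rose and 4.94% fell. In TRIM33-KO 20 rose and 0 fell, where 16.5% rose and 20.1% fell. In WT, 0 of 29 passed in either direction, where 2.82% of all genes rose and 0.105% fell; 4 had an unadjusted p under 0.05, and DESeq2 called 0. In DUXBL-KO, 0 of 29 passed, where 4.5% rose and 0.404% fell; 2 had an unadjusted p under 0.05, and DESeq2 called 0. In the plain set, libraries with the same replicate number deviated together, and with the number as a block 2 mitochondrial genes fell in DUXBL-KO, where 6.9% of all genes rose and 1.92% fell, and 0 passed in WT. Both were rows with a nuclear copy, mt-Atp6 (log2 -0.58 ± 0.14, edgeR adjusted p = 0.0391) and mt-Co3 (-0.44 ± 0.11, adjusted p = 0.0482). With the copies added and the same block neither passed (-0.13 ± 0.12 and 0.09 ± 0.11; edgeR adjusted p = 0.576 and 0.7), and 0 of 29 did. In TRIM24-KO fewer mitochondrial genes passed without both libraries rich in CT010467.1, without replicate 2 of either treatment, or without replicate 1 without DOX. The same held in WT pLV2 line 1 without replicate 2 of either treatment and in line 2 without replicate 1 with DOX. With 1 library left out its group keeps 1, and in these lines fewer of all genes passed as well.

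Of the mRNAs as deposited, 5, 7, 6 and 8 of 13 rose in WT pLV2 line 1, line 2, TRIM24-KO and TRIM33-KO. With the copies added, 10, 12, 11 and 13 of 13 rose, where 10.1%, 12.8%, 11.6% and 16.5% of all genes rose. The genes that rose in all 4 lines were then mt-Nd2, mt-Co2, mt-Atp8, mt-Atp6, mt-Co3, mt-Nd3, mt-Nd4l, mt-Nd4, mt-Nd5 and mt-Cytb; mt-Co1 rose in 3 lines, mt-Nd1 in 2 and mt-Nd6 in 1. The TRIM24-KO count of 11 was 4 without both libraries rich in CT010467.1, 5 without replicate 2 with DOX and 3 without replicate 2 without DOX. That of WT pLV2 line 1, 10, was 5 without replicate 2 with DOX. In TRIM33-KO it was 12 or 13 whichever library was left out, and in line 2 it was 8 to 13. Of the 13, mt-Cytb and summed mt-Nd3 passed in all 4 lines whichever library of the line was left out. The median log2 fold change of the 13 was 0.51, 0.59, 0.50 and 0.69 in the same order, beside medians of -0.03, -0.07, 0 and -0.09 over all genes tested. In WT it was 0.06 and in DUXBL-KO -0.19, beside -0.01 in each over all genes. Both libraries with DOX lay above both without for 13 of the 13 in TRIM33-KO (28.2% of all genes) and in WT pLV2 line 1 (28.5%), and for 12 in TRIM24-KO (28.1%) and in line 2 (24.9%). In WT this held for mt-Co1 alone (21.1% of all genes). In DUXBL-KO 6 of 13 had both libraries with DOX below both without, where 19.7% of all genes did.

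Complex III takes 1 subunit from the mitochondrial genome, cytochrome b, and its gene mt-Cytb (chrM:14145-15288), the most distal mRNA of the heavy-strand transcript, showed the largest fold changes of the 13 in TRIM33-KO. It was at 1649 and 2264 CPM without DOX and 3513 and 3905 CPM with DOX in TRIM33-KO, at 1800 and 1568 against 3271 and 2613 in WT pLV2 line 2, at 1095 and 1118 against 1766 and 1901 in line 1, and at 1844 and 1802 against 2590 and 3073 in TRIM24-KO. All values with DOX exceeded those without in each of the 4 lines. The log2 fold changes were 0.92 ± 0.13 (SE; edgeR adjusted p = 2.75e-05), 0.80 ± 0.13 (adjusted p = 0.00016), 0.73 ± 0.13 (adjusted p = 0.000633) and 0.64 ± 0.13 (adjusted p = 0.00192). In WT it was at 2011 and 1014 CPM without and 1573 and 1285 with DOX, the treated libraries lying between the untreated (log2 fold change -0.08 ± 0.29, edgeR adjusted p = 0.976). In DUXBL-KO it was at 1761 and 1958 without and 1683 and 1378 with DOX, the treated below the untreated, but the change of -0.28 ± 0.29 did not pass (edgeR adjusted p = 0.765).

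Complex I, the entry point for electrons from NADH, takes 7 subunits from the mitochondrial genome. Membrane-arm subunits mt-Nd4 (chrM:10167-11544) and mt-Nd5 (chrM:11742-13565) rose in all 4 pLV2 lines. In TRIM33-KO mt-Nd4 went from 1200 and 1544 CPM to 2346 and 2758 CPM, in WT pLV2 line 2 from 1274 and 1112 to 2191 and 1714, in line 1 from 931.7 and 924.7 to 1291 and 1373, and in TRIM24-KO from 1614 and 1510 to 2026 and 2416. No value with DOX reached down to those without. Its log2 fold changes with the copies added were 0.90, 0.71, 0.52 and 0.51 in that order, each ± 0.13, with edgeR adjusted p from 2.6e-05 to 0.00868. For mt-Nd5 they were 0.69, 0.53, 0.51 and 0.52, each ± 0.11, with edgeR adjusted p from 9.77e-05 to 0.00353. mt-Nd4 did not pass without replicate 2 with DOX in line 1 or in TRIM24-KO, and in TRIM24-KO neither gene passed without replicate 2 without DOX (copies added; as deposited, mt-Nd5 also missed without replicate 2 with DOX, adjusted p = 0.0551).

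The small subunits mt-Nd3 (chrM:9459-9806) and mt-Nd4l can be read only with their copies. Summed mt-Nd3 went from 101.9 and 144.9 CPM to 210.1 and 243.9 CPM in TRIM33-KO, from 108.5 and 103.1 to 205.4 and 170.0 in WT pLV2 line 2, from 118.8 and 119.5 to 194.2 and 201.2 in line 1, and from 144.9 and 133.0 to 201.8 and 220.6 in TRIM24-KO. Every line's groups were apart, with log2 fold changes of 0.88, 0.83, 0.73 and 0.60, each ± 0.12 (edgeR adjusted p = 2.81e-05, 7.95e-05, 0.000426 and 0.00218). As deposited, mt-Nd3 was the 1 mitochondrial gene that fell, in WT pLV2 line 2 (edgeR adjusted p = 0.000491; by DESeq2 it did not pass, adjusted p = 0.466), on counts of 62 and 28 without DOX against 0 and 0 with it. Summed mt-Nd4l rose by 0.84, 0.81, 0.51 and 0.48 (log2, each ± 0.10) in TRIM33-KO, line 2, line 1 and TRIM24-KO, with edgeR adjusted p from 3e-06 to 0.00225, and did not pass in TRIM24-KO without replicate 2 without DOX.

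Of the 2 complex I genes nearest the rRNAs, mt-Nd2 rose in all 4 pLV2 lines and mt-Nd1 in 2 of them. In TRIM33-KO mt-Nd2 (chrM:3914-4951) went from 1082 and 1565 CPM to 1813 and 2268 CPM. Over the 4 lines it rose by 0.52 to 0.63 (log2, ± 0.14; edgeR adjusted p from 0.0027 to 0.0198). By DESeq2 it did not pass in TRIM24-KO as deposited (0.50, adjusted p = 0.0721). mt-Nd1 (chrM:2751-3707) rose in WT pLV2 line 2, from 1829 and 1743 CPM to 2812 and 2407 CPM (log2 0.55, edgeR adjusted p = 0.0063), and in TRIM33-KO (0.57, adjusted p = 0.00335). Line 1 of the WT cells had 2096 and 2014 CPM without and 2665 and 2743 CPM with DOX, groups that did not overlap, but at a log2 fold change of 0.40 ± 0.14 the gene missed the threshold (edgeR adjusted p = 0.0577), as it did in TRIM24-KO (0.37, adjusted p = 0.0719). As deposited, mt-Nd2 lost its call in line 1 whichever of that line's libraries was left out (edgeR adjusted p from 0.0717 to 0.105), in TRIM24-KO when any of 3 of its 4 was left out (0.106 to 0.254) and in line 2 without replicate 1 with DOX (0.0867). mt-Nd1 did not pass in line 2 without replicate 1 with DOX (0.0852) or in TRIM33-KO without replicate 1 without DOX (0.053).

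The mRNA of the other strand, mt-Nd6 (chrM:13552-14070, minus strand), passed the test in TRIM33-KO alone. It was at 188.2 and 157.3 CPM without DOX and 245.0 and 251.7 CPM with DOX in TRIM33-KO (log2 fold change 0.52 ± 0.13, edgeR adjusted p = 0.00413 with the copies added), and did not pass without replicate 2 without DOX (0.42, adjusted p = 0.0589, as deposited). For WT pLV2 line 1 the values were 354.1 and 363.7 against 405.4 and 406.4 CPM, for line 2 they were 163.8 and 224.7 against 214.1 and 228.9, and for TRIM24-KO 334.1 and 329.5 against 317.0 and 420.9. Line 2 and TRIM24-KO overlapped between treatments, and none of these 3 passed (log2 0.18, 0.19 and 0.15; edgeR adjusted p = 0.398, 0.302 and 0.491). As a share of mitochondrial mRNA counts mt-Nd6 was lower with DOX without overlap in WT pLV2 line 1 (2.023% and 2.084% against 1.801% and 1.721%), TRIM24-KO (1.491% and 1.49% against 1.164% and 1.266%) and DUXBL-KO (1.319% and 1.238% against 1.146% and 0.9534%). The shares are of mRNA counts as deposited, without the copies. Since mt-Nd6 and mt-Nd5 overlap by 14 bases on opposite strands, and whether strand was used in counting is not given in the sources used here, reads of antisense RNA over mt-Nd6 cannot be told apart from its own.

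**Figure D3:**
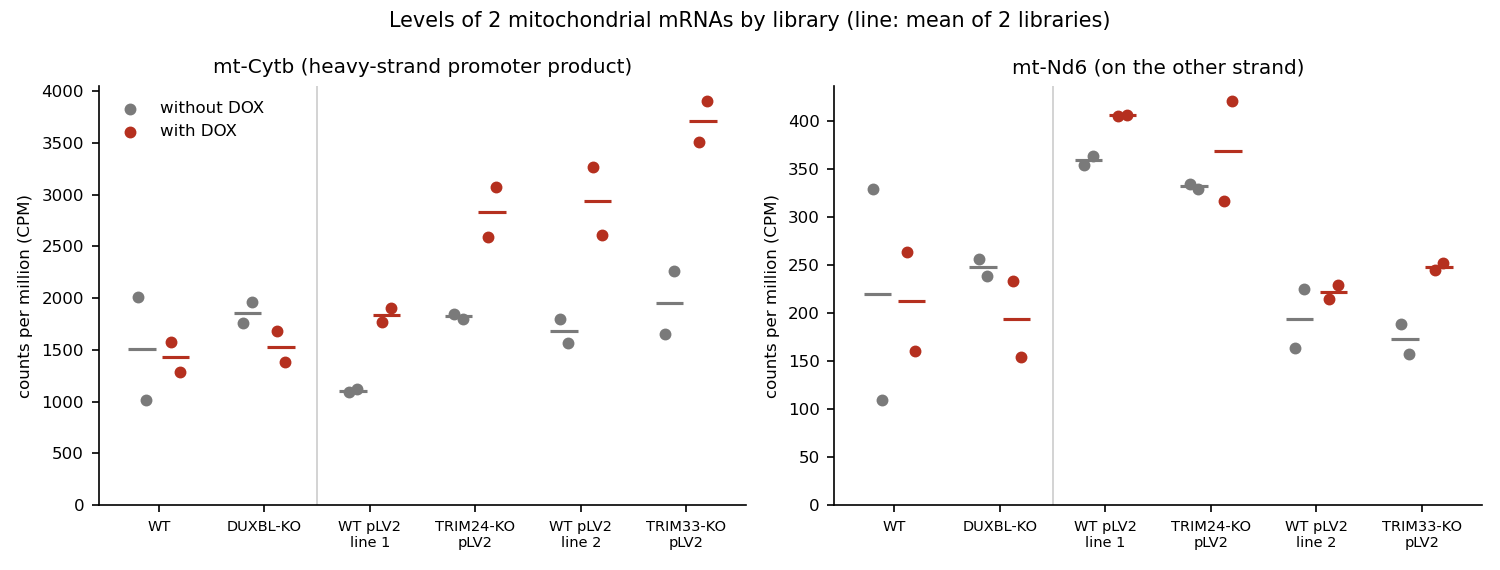
Levels of mt-Cytb (left) and mt-Nd6 (right) in CPM (y axes start at 0) in each library without (grey) and with DOX (red), by line; short bars are means of 2 libraries. In the 4 pLV2 lines the mt-Cytb points with DOX lie above those without, while those of mt-Nd6 overlap in WT pLV2 line 2 and TRIM24-KO.

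Complex IV, cytochrome c oxidase, takes its 3 catalytic core subunits from the mitochondrial genome. mt-Co1 (chrM:5328-6872), the most abundant of the mRNAs, had the lowest log2 fold change of the 12 heavy-strand mRNAs in every pLV2 line. TRIM33-KO had 6307 and 8048 CPM without and 9165 and 10710 CPM with DOX, and TRIM24-KO 7585 and 7705 against 8676 and 10760. WT pLV2 line 1 had 6660 and 6634 against 7634 and 7920, and line 2 had 6226 and 6669 against 8205 and 7916. The groups were apart in each. With log2 changes of 0.47, 0.35 and 0.32 (± 0.10) it passed in TRIM33-KO, TRIM24-KO and line 2 (edgeR adjusted p = 0.00202, 0.0307 and 0.0306 with the copies added), and with 0.23 it did not in line 1 (adjusted p = 0.166). DESeq2 did not call it in TRIM24-KO as deposited (0.33, adjusted p = 0.0995). As deposited, it did not pass in TRIM24-KO or in line 2 when any of 3 of the line's 4 libraries was left out (edgeR adjusted p from 0.133 to 0.332 and from 0.0656 to 0.139). Summed mt-Co2 went from 1526 and 2021 CPM to 2421 and 2675 CPM in TRIM33-KO and rose by 0.44, 0.47, 0.44 and 0.52 (± 0.10; edgeR adjusted p from 0.000811 to 0.00713). Summed mt-Co3 went from 1120 and 1340 CPM to 1703 and 1887 CPM in TRIM33-KO and rose by 0.43, 0.40, 0.40 and 0.55 (± 0.09; edgeR adjusted p from 0.000119 to 0.00382), both in the order WT pLV2 line 1, line 2, TRIM24-KO and TRIM33-KO. Summed mt-Co2 did not pass without replicate 2 with DOX in line 1 or in TRIM24-KO, or without replicate 2 without DOX in TRIM24-KO. Summed mt-Co3 did not pass in TRIM24-KO without the latter or without both libraries rich in CT010467.1, or in line 2 without replicate 1 with DOX.

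Complex V, the ATP synthase, takes 2 subunits of its membrane part from overlapping genes of the mitochondrial genome. mt-Atp8 (chrM:7766-7969) had 490.2 and 697.6 CPM without and 880.8 and 1057 CPM with DOX in TRIM33-KO, 440.7 and 474.1 against 762.6 and 693.5 in WT pLV2 line 2, 354.8 and 351.8 against 504.5 and 572.6 in line 1, and 458.6 and 444.6 against 597.9 and 835.3 in TRIM24-KO. With DOX the values were higher throughout these 4 lines, by 0.71, 0.67, 0.61 and 0.66 (log2, ± 0.15; edgeR adjusted p from 0.00111 to 0.00808 with the copies added). Summed mt-Atp6 (chrM:7927-8607) rose by 0.69, 0.59, 0.52 and 0.50 in that order (± 0.12; edgeR adjusted p from 0.000229 to 0.00664). Without replicate 2 with DOX neither passed in line 1 or in TRIM24-KO, where mt-Atp8 was at 0.41 as deposited (adjusted p = 0.0967), and summed mt-Atp6 did not pass in TRIM24-KO without replicate 2 without DOX. As deposited, mt-Atp8 also missed without replicate 2 without DOX in line 1 and in TRIM24-KO (adjusted p = 0.052 and 0.0517). The last 43 bases of mt-Atp8, printed above, are also the start of mt-Atp6, so a read from there matches both genes.

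**Figure D4:**
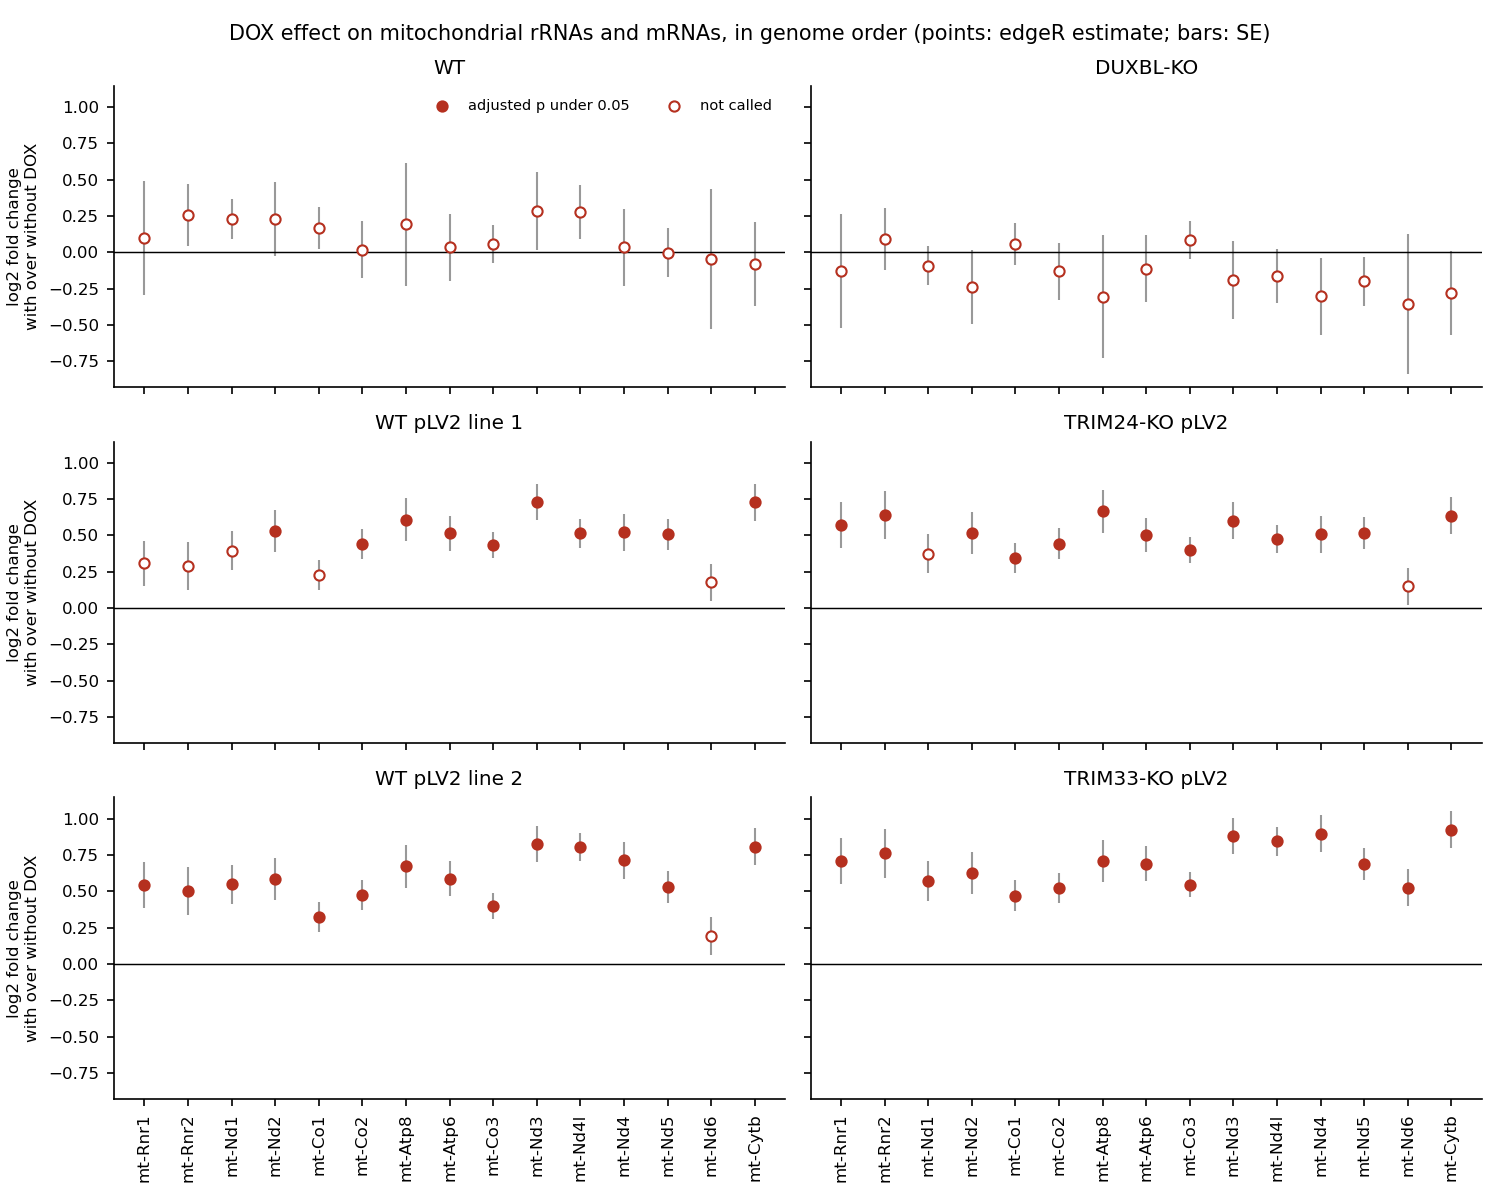
Log2 fold change with over without DOX (y axis; points are edgeR estimates, bars their standard errors) of each mitochondrial rRNA and mRNA in genome order (x axis), copies added, with 1 panel per line; filled points passed at an adjusted p under 0.05. In the 4 pLV2 lines all points lie above 0, with mt-Co1 lowest among the heavy-strand mRNAs, and in WT and DUXBL-KO no point is filled.

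Both mitochondrial rRNAs, which form the core of the mitochondrial ribosome, passed in 3 of the 4 pLV2 lines, and in TRIM33-KO alone whichever of its libraries was left out. mt-Rnr1 (12S, chrM:70-1024) was at 29190 and 34990 CPM without DOX against 47540 and 45810 CPM with DOX in WT pLV2 line 2, at 35710 and 49010 against 60350 and 77830 in TRIM33-KO, and at 51180 and 50990 against 61240 and 90400 in TRIM24-KO. Its log2 changes were 0.54, 0.71 and 0.57 (edgeR adjusted p = 0.0171, 0.00206 and 0.0183). In WT pLV2 line 1 it was at 39330 and 37250 against 44690 and 50090 CPM, without overlap, and did not pass (0.31 ± 0.16, edgeR adjusted p = 0.214). The high TRIM24-KO value is again the library with 30.43% of counts in CT010467.1, whose scaling factor was 0.5911. mt-Rnr2 (16S, chrM:1094-2675) changed by 0.50, 0.76 and 0.64 in the same 3 lines (edgeR adjusted p = 0.0345, 0.0018 and 0.0127) and by 0.29 ± 0.17 in line 1 (adjusted p = 0.275). In TRIM24-KO the size of the changes depended on replicate 2 with DOX: without it they were 0.27 for mt-Rnr1 and 0.245 for mt-Rnr2. Leaving out replicate 1 or 2 without DOX gave 0.57 and 0.53 for mt-Rnr1 and 0.62 and 0.63 for mt-Rnr2. By DESeq2 neither rRNA passed in TRIM24-KO (adjusted p = 0.0791 and 0.0532). In line 2 neither passed without replicate 1 with DOX (adjusted p = 0.0823 and 0.114) or without replicate 1 without DOX (0.112 and 0.177), and mt-Rnr2 did not without replicate 2 with DOX (0.0908) or by DESeq2 (0.0775). WT without DOX had 26230 and 10390 CPM for mt-Rnr1.

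The tRNAs had few counts, 764 to 2164 per library in all, and DOX raised several of them in 2 lines. Of 13 tested, 7 rose in WT pLV2 line 2, 10 in TRIM33-KO, 1 in line 1 and 0 in TRIM24-KO (edgeR; the TRIM24-KO count is also 0 with the copies added), where 12.7%, 16.5%, 10% and 11.5% of all genes rose. In line 1 and TRIM24-KO the tRNAs thus rose no more often than all genes did. mt-Tw, the tryptophan tRNA, which overlaps the end of mt-Nd2, was at 12.94 and 15.38 CPM without and 27.19 and 21.78 CPM with DOX in line 2 (log2 0.79, edgeR adjusted p = 0.000486) and rose by 0.81 in TRIM33-KO (adjusted p = 0.000298). mt-Tm, the methionine tRNA, was the 1 that rose in 3 lines, for example from 3.773 and 4.505 CPM to 6.013 and 6.583 CPM in line 1 (log2 0.60, edgeR adjusted p = 0.0359). It changed by 0.84 in line 2 and in TRIM33-KO (adjusted p = 0.00133 and 0.000701) and by 0.47 in TRIM24-KO, which did not pass (adjusted p = 0.102). mt-Tl1, printed above, was at 40.27 and 41.31 against 63.86 and 54.89 CPM in line 2 (0.54, edgeR adjusted p = 0.0038) and changed by 0.58 in TRIM33-KO (adjusted p = 0.00146). mt-Tv, the valine tRNA between the rRNAs, had the largest tRNA change among those named, 1.09 in TRIM33-KO, from 3.18 and 3.362 CPM to 6.045 and 8.022 CPM (edgeR adjusted p = 0.000273). From the light-strand promoter, mt-Tp, the proline tRNA, rose in TRIM33-KO by 0.83 (adjusted p = 0.00531). The rows mt-Ti and mt-Tf also rose there, by 1.02 and 0.58 (edgeR adjusted p = 0.0259 and 0.031). 6 tRNAs, mt-Tq, mt-Ta, mt-Tn, mt-Tc, mt-Ty and mt-Tr, had 0 counts in all 24 libraries. All but mt-Tr of these come from the light-strand promoter.

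Whether the response to DOX differed between lines was tested within each set. In the interaction of DUXBL-KO with WT, 0 of 29 genes passed and 0% of all genes did (edgeR; 0 members at an unadjusted p under 0.05, 0 by DESeq2). For TRIM24-KO against the mean of the WT pLV2 lines it was 0 of 28 (0.437% of all genes; 0 at an unadjusted p under 0.05; 0 by DESeq2). For TRIM33-KO it was also 0 of 28 (0.575% of all genes), with 2 at an unadjusted p under 0.05, mt-Nd6 among them (difference 0.34 ± 0.16, edgeR adjusted p = 0.501), and 0 by DESeq2. Line 2 against line 1 gave 0 of 28 (0.238% of all genes), 1 at an unadjusted p under 0.05 and 0 by DESeq2. With copies added, the TRIM33-KO differences over mRNAs and rRNAs ran from 0.07 to 0.37 (log2) and those of TRIM24-KO from -0.18 to 0.25. Each set had a fit of its own, so a difference between plain and pLV2 lines was not tested.

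Levels per length gave the same leading mRNA in every library. In CPM per kilobase, here without trimmed-mean scaling and with copies added, the medians of the pLV2 libraries without DOX were 4811.2 for mt-Co1, 2602.6 for mt-Atp6, 2499.6 for mt-Co2, 2446.6 for mt-Atp8, 2298.9 for mt-Nd1, 1735.6 for mt-Co3, 1653.9 for mt-Cytb, 1200.7 for mt-Nd2, 1029.7 for mt-Nd4, 761.7 for mt-Nd5, 585.6 for mt-Nd6, 414.1 for mt-Nd4l and 366.7 for mt-Nd3. Only mt-Co1 held a fixed place, ranking first of the 13 in all 24 libraries. The rRNAs were far above, at 43136.5 for mt-Rnr1 and 36670.4 for mt-Rnr2, and lower in the plain set without DOX, at 21028.6 and 21674.8. The sets were not compared by a test, and rRNA depletion acts on these levels. Fold change followed gene order loosely: over the 12 heavy-strand mRNAs Spearman's rho between position and log2 fold change was 0.43, 0.49, 0.51 and 0.75 in WT pLV2 line 1, line 2, TRIM24-KO and TRIM33-KO, and -0.43 and -0.41 in WT and DUXBL-KO. These genes share transcripts and libraries, so the values are descriptions.

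Without DOX, mitochondrial genes passed in both directions between the pLV2 lines, as did 11.1% to 22.5% of all genes in each direction. In TRIM24-KO against the mean of the WT pLV2 lines 8 members were higher and 3 lower (20.9% and 22.5% of all genes), in TRIM33-KO 6 higher and 2 lower (12.8% and 11.1%), and in WT pLV2 line 2 against line 1, 3 higher and 5 lower (18.9% and 19.3%). The TRIM24-KO count of 11 was 5 without its replicate 1, 7 without its replicate 2 and 7 against line 1 alone. That of TRIM33-KO, 8, was 2 without its replicate 2, 13 without its replicate 1 and 1 against line 2 alone. The count between the WT lines, 8, was 4 without line 1 replicate 1 and 5 without line 2 replicate 1. mt-Nd6 was lower in line 2 than in line 1 (-0.89 ± 0.13, edgeR adjusted p = 5.05e-05) and lower in TRIM33-KO than in the mean of the WT lines (-0.61 ± 0.12, adjusted p = 0.00108), while mt-Cytb was higher in both comparisons (0.61, adjusted p = 0.00125, and 0.52, adjusted p = 0.00243). The TRIM33-KO differences were not found against line 2 alone, where mt-Nd6 was at -0.17 (edgeR adjusted p = 0.687) and mt-Cytb at 0.22 (adjusted p = 0.565), and mt-Cytb did not pass without TRIM33-KO replicate 2 (0.29, adjusted p = 0.0998). In TRIM24-KO mt-Nd5 was 0.77 ± 0.09 higher (edgeR adjusted p = 4.42e-06) and mt-Rnr1 0.54 ± 0.13 higher (adjusted p = 0.00325; 0.42 and adjusted p = 0.0502 against line 1 alone). Its mt-Nd6 was 0.33 higher against both WT lines (adjusted p = 0.0228) but 0.11 lower on the log2 scale against line 1 alone, and did not pass without TRIM24-KO replicate 1 (0.32, adjusted p = 0.116). In DUXBL-KO against WT, 0 of 29 passed (0.0388% of all genes; 3 at an unadjusted p under 0.05; 1 by DESeq2). With the replicate block mt-Co3 was higher (0.70 ± 0.11, edgeR adjusted p = 0.0237; 440 of all genes passed in place of 7), and with the copies added as well it did not pass (0.08 ± 0.11, adjusted p = 0.755).

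Polrmt, the mitochondrial RNA polymerase, its partners Tfam and Tfb2m, and Lrpprc and Slirp, which stabilise mitochondrial mRNAs, passed in no line (edgeR). Of 10 transcription genes 0 rose in any line, 2 fell in TRIM33-KO, where 20.1% of all genes fell, and 1 fell in WT pLV2 line 1, where 6.25% did. Tefm, the elongation factor, was at 26.88 and 23.72 CPM without and 15.11 and 16.15 CPM with DOX in TRIM33-KO (log2 -0.70 ± 0.12, edgeR adjusted p = 0.000193). Of 32 RNA maturation and decay genes 1 rose and 13 fell in TRIM33-KO, where 16.5% of all genes rose and 20.1% fell, and 1 rose and 6 fell in WT pLV2 line 2, where 12.7% rose and 14% fell. Fastkd3, a member of the FASTK family of mitochondrial RNA-binding proteins, rose in TRIM24-KO by 0.42 and in line 2 by 0.32 (edgeR adjusted p = 0.0124 and 0.0293), and 1110008L16Rik fell by 0.63 in TRIM33-KO and 0.35 in line 2 on the log2 scale (adjusted p = 6.67e-05 and 0.00947).

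Of 78 mitochondrial ribosomal proteins 1 rose and 21 fell in TRIM33-KO, where 16.5% of all genes rose and 20.1% fell, with a list median of -0.07 beside -0.09. In WT pLV2 line 2 1 rose and 8 fell (12.7% and 14% of all genes), and in TRIM24-KO 1 and 3 (11.5% and 4.94%). WT pLV2 line 1 had 0 that rose and 4 that fell (10% and 6.25%). Mrps11 rose in WT pLV2 line 2 (log2 0.36, edgeR adjusted p = 0.0111). Mrps18b fell in all 4 pLV2 lines, by 0.26 (WT pLV2 line 1), 0.32 (line 2), 0.30 (TRIM24-KO) and 0.52 (TRIM33-KO) on the log2 scale (edgeR adjusted p = 0.0298, 0.00685, 0.0156 and 0.000103). Of 12 DNA maintenance genes 3 rose and 4 fell in TRIM33-KO, where 16.5% and 20.1% of all genes did. In line 2 (12.7% and 14% of all genes) and in TRIM24-KO (11.5% and 4.94%) 1 rose and 2 fell, and in line 1 1 fell (6.25%). Endog, a mitochondrial nuclease, went from 10.93 and 9.805 CPM to 18.05 and 16.01 CPM in TRIM24-KO (log2 0.72, edgeR adjusted p = 0.00517) and rose by 0.53 in TRIM33-KO (adjusted p = 0.0238). Mgme1, a nuclease of mitochondrial DNA, fell by 0.37 in line 1, 0.32 in TRIM24-KO and 0.59 in TRIM33-KO on the log2 scale (edgeR adjusted p = 0.0114, 0.0291 and 0.000191).

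The lists of nuclear respiratory chain genes and of biogenesis regulators are read against the same shares of all genes. These were 16.5% rising and 20.1% falling in TRIM33-KO and 12.7% and 14% in WT pLV2 line 2. In TRIM24-KO they were 11.5% and 4.94%, and in WT pLV2 line 1 10% and 6.25%. Of 46 complex I genes 8 rose and 2 fell in TRIM33-KO (list median 0.09), 3 rose and 2 fell in line 2, and TRIM24-KO and line 1 had 1 each that rose. The risen complex I genes were thus near the share of all genes in TRIM33-KO and below it in line 2, TRIM24-KO and line 1. Ndufb9 rose by 0.32 in TRIM33-KO (edgeR adjusted p = 0.00487). Ndufa4l2, on the list without being an established complex I subunit, changed by -1.09 there (edgeR adjusted p = 0.00133). Complexes II, III and IV had 1 of 4, 1 of 9 and 2 of 13 tested genes rise in TRIM33-KO and none fall. Among them were Sdha, the flavoprotein subunit of complex II (log2 0.22, edgeR adjusted p = 0.0139), and Uqcrc1, a core protein of complex III (0.21, adjusted p = 0.0156). Cox6b2, a testis isoform of a complex IV subunit, rose there by 0.50 and in WT pLV2 line 1 by 0.46 (adjusted p = 0.00179 and 0.00359). Among 17 ATP synthase genes 9 rose and 0 fell in TRIM33-KO, with a list median of 0.20 beside -0.09 over all genes, and 2 rose in line 2. Atp5b, the catalytic beta subunit, was at 1096 and 1070 CPM without and 1433 and 1321 CPM with DOX in TRIM33-KO (log2 0.35 ± 0.06, edgeR adjusted p = 0.000205). Of the 5 tested biogenesis regulators 1 rose and 3 fell in TRIM33-KO and in line 2, 1 rose and 1 fell in TRIM24-KO, and 1 fell in line 1. Ppargc1b, a coactivator of mitochondrial gene programmes, fell from 7.554 and 8.068 CPM to 2.933 and 4.444 CPM in TRIM33-KO (log2 -1.10 ± 0.20, edgeR adjusted p = 0.000393), and in line 2 and TRIM24-KO as well (-1.0 and -0.76, adjusted p = 0.000829 and 0.00333), while Nrf1 rose in the same 3 lines by 0.26 to 0.30 (adjusted p from 0.00353 to 0.0181). Ppargc1a had 0 to 4 counts and was not tested. In WT and DUXBL-KO none of the mitochondrial lists had a gene past the threshold without a replicate block. With it 1 gene, Fastkd3, rose in DUXBL-KO, where 6.9% of all genes rose.

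**Figure D5:**
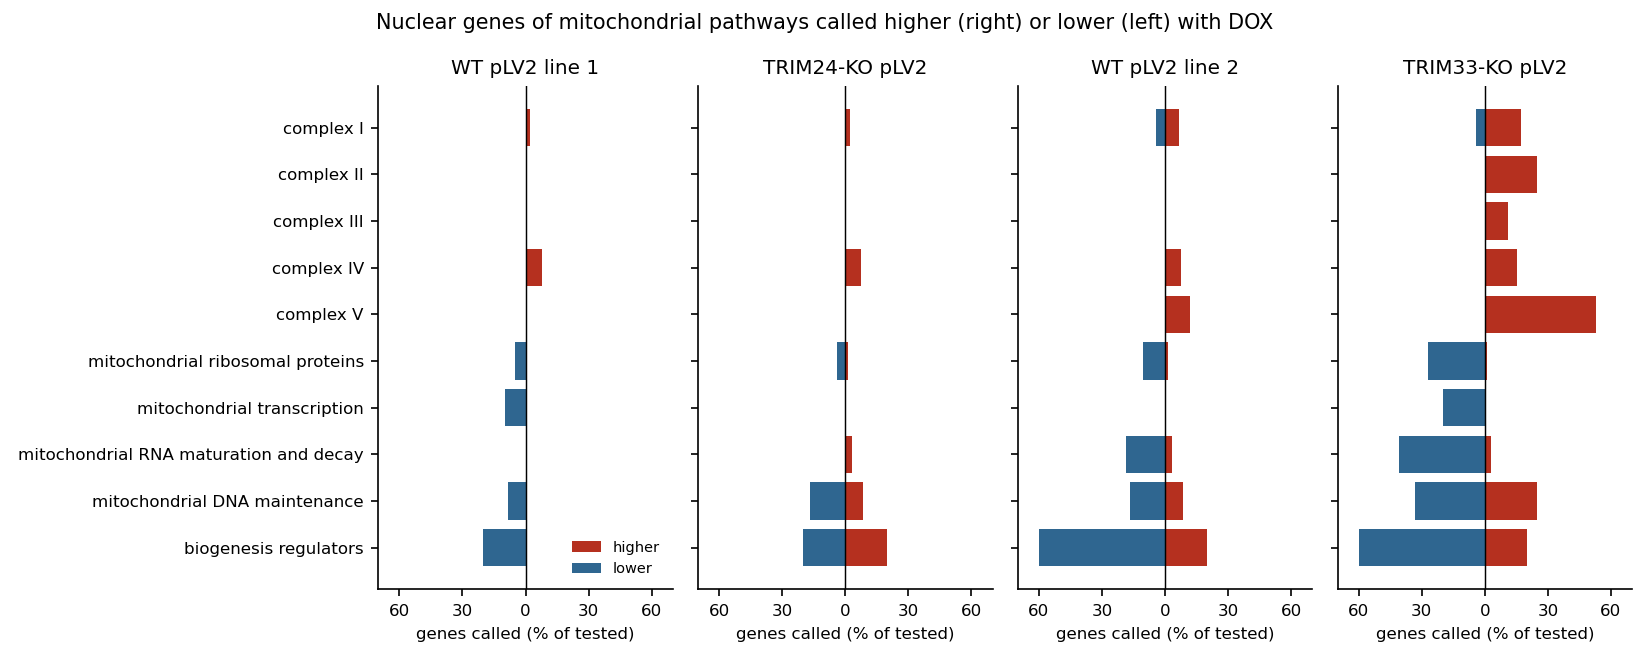
Percent of tested genes in each list of nuclear mitochondrial genes that rose (red, right) or fell (blue, left) with DOX (edgeR, adjusted p under 0.05) in the 4 pLV2 lines. In TRIM33-KO the red bar of complex V stands for 9 of 17 genes and the blue bar of mitochondrial ribosomal proteins for 21 of 78. Over all genes 16.5% rose and 20.1% fell there.

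Other genes moved with DOX in the same libraries. Pluripotency markers summed to 5977 and 5790 CPM without and 5075 and 5009 CPM with DOX in TRIM33-KO and to 5891 and 5748 against 5049 and 5113 CPM in WT pLV2 line 2. Of the 14, 1 rose and 8 fell in each. In line 1 3 rose and 3 fell, and in TRIM24-KO 1 rose and 5 fell. Over all genes 16.5% rose and 20.1% fell in TRIM33-KO, 12.7% and 14% in line 2, 10% and 6.25% in line 1, and 11.5% and 4.94% in TRIM24-KO. Of the 7 fibroblast markers that could be tested, 1 rose in line 1 (Thy1, log2 0.97) and 1 in line 2 (Col1a2, 1.43), 2 rose and 1 fell in TRIM24-KO (Col1a1 1.96, Thy1 0.74 and Loxl1 -1.66), and 2 rose in TRIM33-KO (Col1a1 0.78 and Col1a2 1.41). At 1 of 7, the risen markers of lines 1 and 2 are near the share of all genes that rose. The fibroblast list's median was 0.43, 0.18, 0.41 and 0.16 in line 1, line 2, TRIM24-KO and TRIM33-KO, beside -0.03, -0.07, 0 and -0.09 over all genes, and 0 of 7 passed in WT and in DUXBL-KO. Its sum, mostly Fn1, went from 1480 and 1526 CPM to 1463 and 1432 in line 1, from 1776 and 1675 to 1563 and 1563 in line 2, from 634.9 and 736.9 to 646 and 695.9 in TRIM24-KO and from 1791 and 1836 to 1584 and 1657 in TRIM33-KO. The 9 markers of the 2-cell-like state rose in all 6 lines, to 7998 and 7375 CPM in TRIM33-KO, 1638 and 2567 in TRIM24-KO and, for the WT pLV2 lines, 1459 and 1784 in line 1 against 5539 and 4071 in line 2. The plain set had 1968 and 809.1 CPM in WT and 2374 and 1583 CPM in DUXBL-KO. The 4 DOX libraries of the plain set, where no mitochondrial gene passed without a replicate block, all lay below those of line 2 and TRIM33-KO, the lines with the most mitochondrial calls, and overlapped those of line 1 and TRIM24-KO. The coefficient of variation between replicates was 17.79% in the plain and 8.55% in the pLV2 set, so numbers of calls cannot be compared between the sets. The part of any of these markers, or of CT010467.1, in the mitochondrial levels was not tested.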

How the data were processed

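Each library's table gives reads counted per gene and per repeat subfamily, as deposited by the authors. Per the submitters' processing notes, bcl2fastq 2.20.0, cutadapt 1.18, STAR 2.7.6a and the mm10 build were used; the counting tool, its handling of multiply mapped reads and its use of strand are not given in the sources used here. Libraries were 75 bp paired reads from a directional kit after rRNA depletion, per the labels' protocols. Gene IDs were matched to GENCODE M21 (54349 with version, 792 without, 346 not matched); sequences came from its transcripts, compared with blastn 2.17.0, so only annotated copies were found.

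The 8 plain and 16 pLV2 libraries were fitted apart in edgeR 4.0.16 (R 4.3.3; TMM factors, filterByExpr, quasi-likelihood test, Benjamini-Hochberg over all 18060 and 18079 tested genes, threshold 0.05), with DESeq2 1.42.0 as an alternative. The coefficient of variation between replicates estimated by edgeR was 17.79% for the plain and 8.55% for the pLV2 libraries. Each library had 11784696 to 19136869 gene counts. Tested on simulated data, the fit recovered 52% of genes changed by 1 on the log2 scale for DOX in WT (17642 genes) and 93% for DOX in WT pLV2 line 1 (17348 genes). Share differences used exact permutation of DOX labels within lines. The labels do not say what shared replicate numbers mark, and no block was used in the fits reported. Differences between replicates 1 and 2 correlated at 0.25 to 0.55 over all 6 pairs of groups of the plain set and at -0.05 to 0.19 in the pLV2 set, so the number pairs the plain libraries, as a hint from the data, and not the others; values with it as a block are given for the plain set where they change a call.

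Genes named are all mRNAs and rRNAs, the 6 tRNAs with the highest mean count of at least 50 and the tRNA with the smallest p in a pLV2 line, fixed transcription and biogenesis genes, and the nuclear gene of each list with the smallest p in each direction. Members and lists were chosen with earlier results of these data known. Alternatives were other scalings, filters and references, DESeq2 and each library left out. The nuclear copies added to their mitochondrial rows, also with the block or with libraries left out, were chosen after the data were seen. Leaving out 1 library keeps 1 in its group, and for DOX in WT pLV2 line 1, line 2 and TRIM24-KO fewer of all genes then passed.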

Additional observations from a re-analysis of the deposited data

Results flagged for a closer look

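Several members moved in opposite directions with DOX in different lines, every library with DOX lying on 1 side of those without. The difference between lines was not tested for these, since each set had a fit of its own. Of all genes, 19.7% had both libraries with DOX below both without in DUXBL-KO. In the pLV2 lines 24.9% to 28.5% had both above. The members share transcripts and libraries, so they are not separate observations. In DUXBL-KO both libraries with DOX lay below both without for mt-Nd2 (log2 difference of group means -0.24), mt-Atp8 (-0.31) and mt-Cytb (-0.29), while in all 4 pLV2 lines they lay above, by up to 0.64, 0.72 and 0.94 in TRIM33-KO. With the copies added the same held for mt-Nd3 (-0.19 in DUXBL-KO against up to 0.90 in TRIM33-KO) and mt-Nd4l (-0.17 against up to 0.85). mt-Nd6 was at -0.38 in DUXBL-KO and above without overlap in WT pLV2 line 1 and TRIM33-KO, at most 0.53. The share of mRNAs with their copies was at -0.17 in DUXBL-KO and higher in WT pLV2 line 1, line 2 and TRIM33-KO, at most 0.36. In DUXBL-KO it was 1.949% and 1.96% without and 1.944% and 1.556% with DOX, so the difference came from replicate 2 with DOX. None of these genes passed in DUXBL-KO, and in WT, the other plain line, none of them was separated by DOX.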

How the results depend on the processing

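Counts of mitochondrial genes past the threshold kept their size to within 1.5 times under relative log expression factors, library sizes with repeats or without mitochondrial genes or CT010467.1, and a filter at a mean of 10 counts. With no filter on low counts they were 3 for DOX in WT, 3 in DUXBL-KO, 16 in WT pLV2 line 1 and 14 in TRIM24-KO. They were 1, 3, 4 and 4 for the interactions of DUXBL-KO, TRIM24-KO, TRIM33-KO and WT pLV2 line 2. Without DOX they were 9 in DUXBL-KO, 18 in TRIM33-KO and 14 between the WT pLV2 lines. Over all genes in these fits, 1110 passed for DOX in WT and 1540 in DUXBL-KO, of 34489. Of 36052 in the pLV2 set, 2898 passed for DOX in line 1 and 3193 in TRIM24-KO. The interactions had 17, 224, 350 and 247 in the same order. Without DOX 586 of all genes passed in DUXBL-KO, 4323 in TRIM33-KO and 6763 between the WT lines. DESeq2 gave 4 for DOX in TRIM24-KO, and without DOX 1 in DUXBL-KO and 5 between the WT pLV2 lines (2501, 176 and 5720 over all genes). Only the compared groups in the fit gave 17 for line 1 and 13 between the WT lines. Over all genes these fits called 4257 of 16088 and 6866 of 15970. Nuclear copies added gave 11 for line 1 and 13 for TRIM24-KO. WT line 1 alone as reference gave 7 for TRIM24-KO without DOX, and line 2 alone 1 for TRIM33-KO. Without both libraries high in CT010467.1 TRIM24-KO had 1. With a replicate block DUXBL-KO had 2 with DOX and 1 without, both 0 when the copies were added too; the block changed no other mitochondrial count by over 1.5 times, while the calls over all genes went from 529 to 961 for DOX in WT, from 886 to 1594 in DUXBL-KO and from 7 to 440 between them without DOX.

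Leaving out 1 library at a time gave 2 to 4 for DOX in WT pLV2 line 1, 10 to 17 in line 2, 1 to 10 in TRIM24-KO and 17 to 19 in TRIM33-KO, and without DOX 5 to 10 in TRIM24-KO, 2 to 13 in TRIM33-KO and 4 to 8 between the WT lines. With copies added, the mRNAs that rose numbered 5 to 9 in line 1, 8 to 13 in line 2, 3 to 12 in TRIM24-KO and 12 to 13 in TRIM33-KO, and 4 in TRIM24-KO without both libraries high in CT010467.1. The mean log2 difference of the share ran from 0.2032 to 0.2867 over the pLV2 set, from -0.1382 to 0.1953 over the plain set, which changed sign, and from 0.1172 to 0.2284 over both. By line it ran from 0.1709 to 0.2757 (line 1), 0.2718 to 0.4633 (line 2), 0.0108 to 0.1232 (TRIM24-KO), 0.1549 to 0.4888 (TRIM33-KO), -0.1788 to 0.4882 (WT) and -0.2355 to 0.0403 (DUXBL-KO); the ends are set by replicate 2 and replicate 1 without DOX in WT and by replicates 1 and 2 with DOX in DUXBL-KO.

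The log2 ratio of the share became 0.155 (line 1), 0.1944 (line 2), 0.1001 (TRIM33-KO) and 0.0678 (mean of both sets) with repeats in the total; 0.2957 (line 1), -0.0519 (TRIM24-KO) and 0.1002 (mean of both sets) for mRNAs with rRNAs out of the total; and 0.3218 in TRIM24-KO without CT010467.1.

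Single genes reversed in sign when nuclear copies were added: mt-Co2 to 0.44 (line 1), 0.44 (TRIM24-KO) and 0.52 (TRIM33-KO); mt-Nd3 to 0.73 (line 1), 0.83 (line 2), 0.60 (TRIM24-KO), 0.88 (TRIM33-KO), and without DOX 0.31 (TRIM24-KO) and -0.17 (line 2 against line 1); mt-Nd4l to 0.51 (line 1) and 0.81 (line 2); mt-Co3 to 0.55 (TRIM33-KO), and without DOX 0.30 (TRIM24-KO) and 0.24 (line 2 against line 1). For DOX in WT pLV2 line 2, leaving out 1 library moved mt-Co2 between -16.18, without replicate 1 with DOX and so against a library at 0, which bounds nothing, and 1.21, and mt-Co3 between -1.73 and 1.00. mt-Nd6 without DOX in TRIM24-KO was at -0.11 against line 1 alone. Apart from the changes that follow from the summed rows themselves, the cause was not tested.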
